A study of Homo sapiens with 6 samples.

Results

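The guanylate-binding proteins (GBPs) examined here were GBP1, GBP2, GBP3, GBP4 and GBP5, the rows of the deposited count table that carry those 5 symbols, out of 56303 genes in the table. All 5 passed the filter on low counts, which left 19916 genes for testing. The RNA was from 786-O, an established clear cell renal carcinoma line that lacks functional VHL. The control group held 3 libraries of cells given a control siRNA, with wild-type genotype and a labelled time of 0 h, and the knockdown group held 3 libraries of cells given siRNA against NFE2L3, with a labelled time of 48 h. The siRNA and the labelled time therefore cannot be told apart. NFE2L3 is a CNC-family bZIP transcription factor, and the comparison asks which transcripts differ when it is reduced. In 2 of the knockdown samples the genotype label names NFE2L4 or NFE2L5, whereas the sample names of all 3 give NFE2L3. No source used here gives which NFE2L3 siRNA was used. The study's statistics section speaks in general of independent trials, but no source ties the libraries of a group to separate cultures, so p-values measure library-to-library spread that may be technical only.

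GBPs are large GTPases of the dynamin superfamily whose transcription is strongly induced by interferon-γ and, to a lesser degree, by type I interferons. They act in cell-autonomous defence: they assemble on cytosolic bacteria or on vacuoles that hold pathogens and promote inflammasome and caspase-4 signalling. GBP1, GBP2 and GBP5 end in a CaaX motif that is prenylated and anchors them to membranes, and GBP3 and GBP4 lack that end. Human GBP genes lie next to each other on chromosome 1.

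NFE2L3, the targeted gene, had counts of 6171, 6508 and 6403 in the controls and 1087, 1075 and 1068 after knockdown, and all 3 knockdown libraries lay far below the controls. Its log2 fold change was -2.54 (SE 0.0482, adjusted p = 3.98e-22, edgeR quasi-likelihood test). The total count ran from 51828446 to 57391929 per library. The kidney carcinoma markers PAX8, VIM, KRT8, KRT18 and CDH2 averaged 122.5 to 1349 counts scaled to library size (CPM) in the control libraries. At an adjusted p under 0.05 (edgeR), their list of 7 fell in 4 members and rose in 0, beside 14.0% and 12.7% of all tested genes. Of 9 immune and endothelial markers, CDH5 was at 0 in all libraries, CD68, which many cell types express, averaged 132 CPM in the controls, and each of the other 7 averaged under 1 CPM in both groups. The summed level of the immune and endothelial list was 122.4 to 144.9 CPM in the control libraries and 114.5 to 120.4 CPM in the knockdown libraries, nearly all of it from CD68, and its part in the results was not tested.

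All 5 GBP transcripts were lower in the knockdown libraries at an adjusted p under 0.05. The background for that call was 14.0% of all tested genes, and 12.7% were called higher, as 0 of the 5 members were. Their median log2 fold change was -0.60, beside -0.000656 over all tested genes. The falls ran from 9.69% of the control level for GBP3 to 45.8% for GBP4, and 0 of 5 members reached a fold of 2 at an unadjusted p under 0.05, a call made for 0.377% of tested genes in this direction and for 0.723% in the other. For each member every knockdown library was under every control library, which was so for 20.4% of all tested genes. An exact two-sided permutation test over 3 against 3 libraries gave p = 0.1 for each member, the smallest p this design allows. In bulk RNA, fewer expressing cells and less RNA per cell cannot be told apart.

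Levels are given first for the members with the prenylated end, in RPKM, the exon reads scaled by exon length and by library size. GBP1 forms a coat on cytosolic Gram-negative bacteria and helps to recruit caspase-4. It lies on the minus strand at chr1:89052319-89065360 (GRCh38), with 4992 exon bases in the count table. Its level was 28.88, 31.63 and 32.14 RPKM in the control libraries and 18.0, 19.45 and 17.92 RPKM in the knockdown libraries. The lowest control library was thus well above the highest knockdown library. The mean fell from 30.88 ± 1.75 to 18.46 ± 0.861 RPKM (SD, n = 3 each), or to 59.8% of control. The log2 fold change was -0.74 (SE 0.0464, 95% interval -0.834 to -0.652, adjusted p = 1.43e-11, edgeR quasi-likelihood test).

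GBP2, which joins the GBP1 coat and can also inhibit the protease furin, lies at chr1:89106132-89150456 on the minus strand. It was at 9.305, 8.041 and 8.853 RPKM in the control libraries and at 5.685, 5.715 and 5.874 RPKM in the knockdown libraries. The knockdown libraries were nearly equal and the controls were more spread. The mean fell from 8.733 ± 0.641 to 5.758 ± 0.101 RPKM (SD, n = 3 each), to 66.0% of control. The log2 fold change had a 95% interval of -0.704 to -0.498 and an adjusted p = 4.33e-09 (edgeR quasi-likelihood test). GBP2 shares 621 exon bases on the same strand with GBP7, which is 9.89% of its exon length, and GBP7 itself was almost without counts.

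GBP5, known for promoting NLRP3 inflammasome assembly and, like GBP2, for inhibiting furin, lies at chr1:89258950-89272804 on the minus strand. It was at 3.047, 3.203 and 3.289 RPKM in the control libraries and at 2.026, 2.235 and 2.252 RPKM in the knockdown libraries. Here too every control library was above every knockdown library. The mean fell from 3.179 ± 0.123 to 2.171 ± 0.126 RPKM (SD, n = 3 each), to 68.3% of control, with a log2 fold change of -0.55 (SE 0.0605, 95% interval -0.67 to -0.432, adjusted p = 1.63e-07, edgeR quasi-likelihood test). An antisense transcript, RP4-620F22.2, overlaps 324 of its exon bases (3.98%) and averaged 0.492 CPM. These bases are 100% of the exon length of RP4-620F22.2. Whether the counting used strand is not stated in the sources at hand, so reads of that stretch could belong to either gene.

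Of the members without the prenylated end, GBP3 was the most abundant GBP and changed least. It joins the coat that GBP1 nucleates, and it lies at chr1:89006666-89022894 on the minus strand. Its level was 62.72, 66.9 and 66.05 RPKM in the control libraries and 57.32, 59.23 and 60.16 RPKM in the knockdown libraries. The groups did not overlap, but the gap between them was narrower than the range within either. The mean fell from 65.22 ± 2.21 to 58.9 ± 1.44 RPKM (SD, n = 3 each), to 90.3% of control. The log2 fold change was -0.15 (SE 0.0398, 95% interval -0.225 to -0.0692, adjusted p = 0.00681, edgeR quasi-likelihood test). Without knockdown replicate 1 the adjusted p was 0.0483, the highest among its 16 alternative settings.

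GBP4, also found on the GBP1 coat, lies at chr1:89181148-89198932 on the minus strand and had the largest fall. It was at 3.627, 3.788 and 4.039 RPKM in the control libraries and at 1.942, 1.882 and 2.399 RPKM in the knockdown libraries. Knockdown replicate 3 was higher than the other 2 knockdown libraries and still below every control. The mean fell from 3.818 ± 0.207 to 2.074 ± 0.283 RPKM (SD, n = 3 each), to 54.2% of control. The log2 fold change was -0.88 (SE 0.0762, 95% interval -1.03 to -0.734, adjusted p = 3.48e-09, edgeR quasi-likelihood test).

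**Figure D1:**
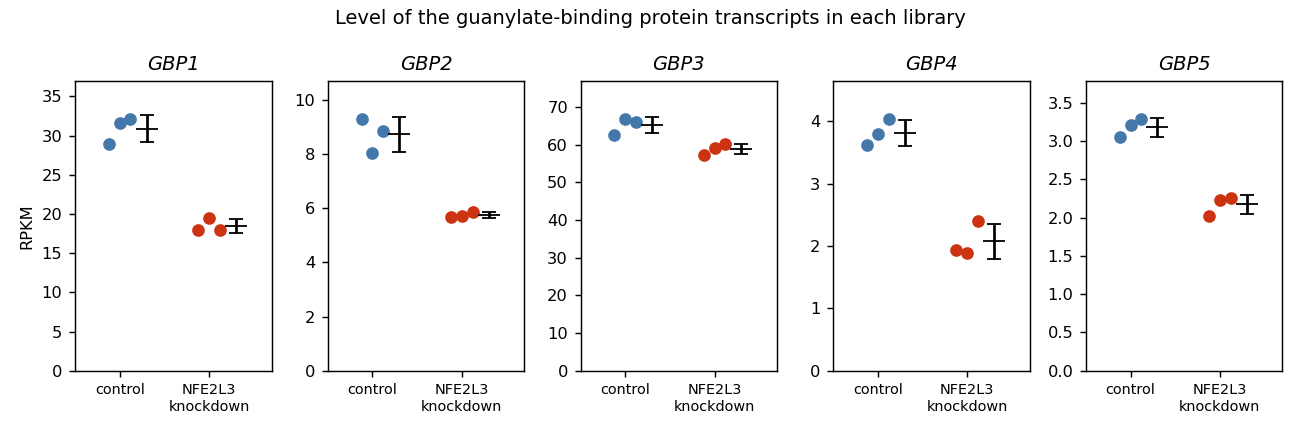
RPKM of each GBP transcript in the 3 control (blue) and 3 NFE2L3 knockdown (red) libraries, with a separate vertical axis from 0 for each gene. Points are libraries, and bars show the mean and SD. In all 5 panels the red points lie below the blue ones, by the widest relative margin for GBP4 and the narrowest for GBP3.

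By length-scaled level the members fell into the order GBP3, GBP1, GBP2, GBP4, GBP5 in the control libraries, and no neighbours in that order overlapped between libraries. By the mean RPKM over all 6 libraries, GBP3 was above 96.3% of the tested genes and GBP1 above 90.1%. GBP2 was above 71.9%, and GBP4 and GBP5 were above 53.0% and 50.9%, close to the middle of the tested genes. In the knockdown libraries the ranges of GBP4 and GBP5 overlapped, and their order could not be told. Without scaling by exon length GBP5 stood above GBP4 in the controls, at 25.89 against 23.39 CPM, so their order rests on the exon lengths of 8143 and 6127 bases. Ranked by log2 fold change from the lowest among 19916 genes, GBP4 was at place 148, GBP1 at 281, GBP2 at 581, GBP5 at 734 and GBP3 at 5054.

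The summed GBP level was 107.6, 113.6 and 114.4 RPKM in the control libraries and 84.97, 88.51 and 88.61 RPKM in the knockdown libraries. The groups did not overlap. Within this sum the share of GBP3 was 58.32% ± 0.582 in the controls and 67.42% ± 0.489 in the knockdown libraries (SD, n = 3 each). The share of GBP1 was 27.6% ± 0.666 in the controls and 21.13% ± 0.874 in the knockdown libraries, and that of GBP4 was 3.413% ± 0.104 and 2.373% ± 0.3. GBP2 held 7.824% ± 0.788 and 6.593% ± 0.121, and GBP5 held 2.843% ± 0.0293 and 2.484% ± 0.0863. The share of GBP3 was thus higher in every knockdown library than in any control, while the shares of the other 4 members had lower means.

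**Figure D2:**
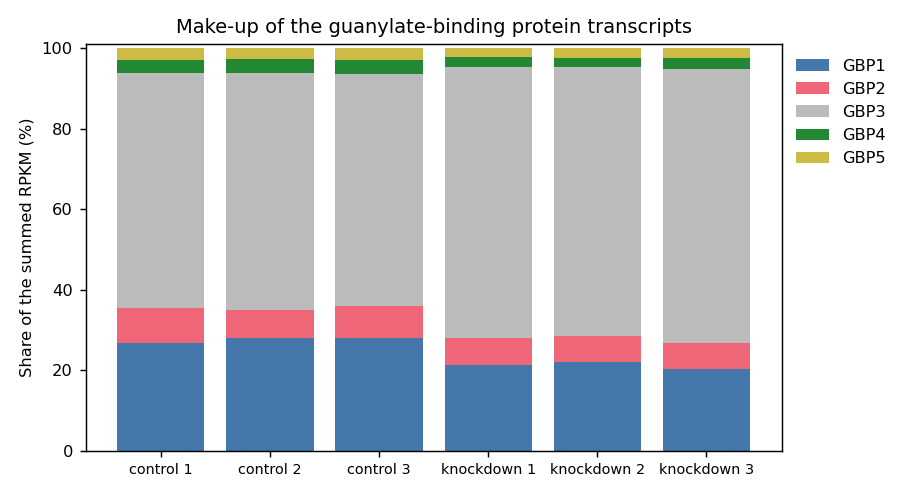
Share of the summed RPKM of the 5 GBP transcripts taken by each gene, in percent, with 1 bar per library. The grey block of GBP3 takes 57.7% to 58.9% of the sum in the control libraries and 66.9% to 67.9% in the knockdown libraries.

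The 10 pairs of members were compared by the log2 ratio of their RPKM in each library. The ratio of GBP1 to GBP3 was -1.12, -1.08 and -1.04 in the controls and -1.67, -1.61 and -1.75 after knockdown. These groups were well apart, and the mean ratio moved by -0.595 on the log2 scale. The ratio of GBP2 to GBP3 moved by -0.452, and those of GBP3 to GBP4 and to GBP5 by 0.741 and 0.405, so that GBP3 moved against each of the other 4 members without overlap between the groups. The ratio of GBP4 to GBP5 moved by -0.336 and that of GBP1 to GBP5 by -0.191, also without overlap. The other 4 pairs overlapped, with changes of -0.144 for GBP1 to GBP2, 0.145 for GBP1 to GBP4, 0.289 for GBP2 to GBP4 and -0.0471 for GBP2 to GBP5. Leaving out single libraries moved all 4 of these changes, that of GBP2 to GBP4 between 0.2285 and 0.3837. That of GBP1 to GBP2 was -0.2384 when control replicate 1 was left out and -0.0674 without control replicate 2, and that of GBP1 to GBP4 was 0.04116 without knockdown replicate 2 and 0.2751 without knockdown replicate 3. That of GBP2 to GBP5 turned to 0.03045 without control replicate 1, was -0.111 without control replicate 2, and lay between these values, though well away from -0.0471, without knockdown replicate 1 or 2. Each of the 6 pairs without overlap had p = 0.1 by the exact two-sided permutation test, the smallest that 3 against 3 libraries can give, and an adjusted p of 0.167 over the 10 pairs. The test therefore could not place any of these differences past 0.05.

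Interferon acts on GBP genes through short promoter elements. RefSeq promoters (GRCh38.p14, from 250 bases before to 50 bases after the start site) were at hand for 3 of the 5 members, and not for GBP2 and GBP5. Those of GBP1, GBP3 and GBP4 are therefore shown, and these genes include the largest and the smallest fall. All are on the minus strand and printed in the direction of transcription. GBP1 covers chr1:89065159-89065458, GBP3 chr1:89022817-89023116 and GBP4 chr1:89198893-89199192. Capitals mark the interferon-stimulated response element (ISRE) core in all 3. In GBP3 capitals also mark the match to the interferon-γ activated site (GAS), which lies before the ISRE, and in GBP4 the match to the κB motif, which lies before the ISRE.
GBP1: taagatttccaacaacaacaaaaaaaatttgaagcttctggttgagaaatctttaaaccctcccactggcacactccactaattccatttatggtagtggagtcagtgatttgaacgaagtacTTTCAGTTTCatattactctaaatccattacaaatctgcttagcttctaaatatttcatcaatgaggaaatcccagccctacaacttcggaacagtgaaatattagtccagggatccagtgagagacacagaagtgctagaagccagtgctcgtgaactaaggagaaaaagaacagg
GBP3: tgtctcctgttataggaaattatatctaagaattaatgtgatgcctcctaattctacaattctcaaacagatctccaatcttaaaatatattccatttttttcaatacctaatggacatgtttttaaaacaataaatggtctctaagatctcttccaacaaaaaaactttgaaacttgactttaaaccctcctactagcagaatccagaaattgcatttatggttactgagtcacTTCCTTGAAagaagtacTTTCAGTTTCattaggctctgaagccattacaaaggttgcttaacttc
GBP4: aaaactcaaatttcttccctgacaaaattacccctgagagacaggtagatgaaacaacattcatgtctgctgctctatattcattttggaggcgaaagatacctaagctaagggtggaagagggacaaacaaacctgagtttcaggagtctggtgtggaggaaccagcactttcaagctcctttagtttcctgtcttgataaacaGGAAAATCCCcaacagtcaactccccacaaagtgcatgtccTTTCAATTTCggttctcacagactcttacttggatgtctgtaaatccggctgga

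The motifs were searched on both strands. The ISRE core, GAAANNGAAA, was present once in each of the 3 member promoters and in 3.57% of all 35116 promoters of that length. It lay at positions -127 to -118 from the RefSeq start in GBP1, at 3 to 12 in GBP3 and at -4 to 6 in GBP4, in each case on the strand opposite to the gene. Measured from the outermost start in the count table the GBP1 match lay at 26 to 35 and the GBP3 match at 31 to 40, so the distance depends on which start is used. GAS, TTCNNNGAA, was matched at -15 to -7 in GBP3 alone among the 3, and in 7.66% of all promoters. The κB motif was matched at -45 to -36 in GBP4 alone among the 3, and in 11.3% of all promoters. The core of the antioxidant response element, TGACNNNGC, which CNC factors bind with small MAF proteins, was not in the 3 windows and was in 13.3% of all promoters. GTCACNCT, searched as a published NFE2L3 motif, was likewise not in these windows and was in 3.39% of all promoters. The GBP3 and GBP1 promoters share an identical stretch of 19 bases that spans the ISRE core:
shared: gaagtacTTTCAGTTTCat

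The shared stretch starts at -134 in GBP1 and at -5 in GBP3, and around it the promoters were 87.1% identical over 140 aligned bases. These are the members with log2 fold changes of -0.74 and -0.15. Matches to a motif describe the sequence and do not show that a factor was bound.

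**Figure D3:**
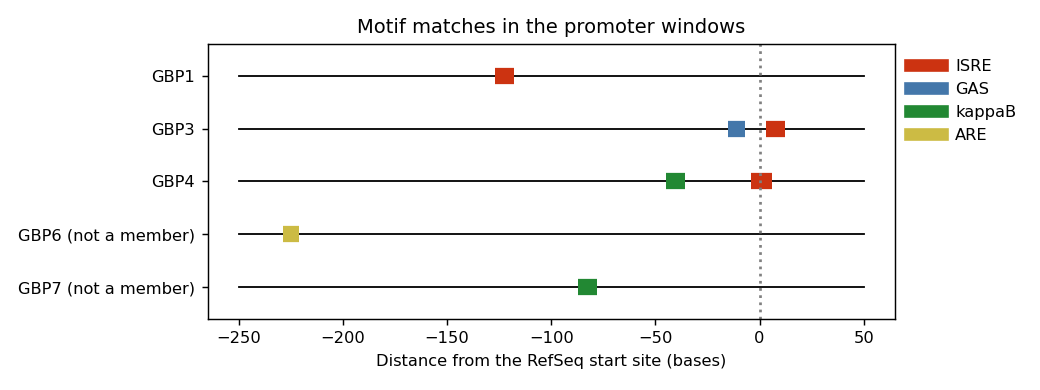
Positions of motif matches, in bases from the RefSeq start site, in the promoter windows of 3 members and of the relatives GBP6 and GBP7. The red ISRE blocks are present in GBP1, GBP3 and GBP4, GBP6 holds an ARE core and GBP7 a κB match.

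Of the other GBP relatives, GBP6 and GBP7 were near or at the limit of detection. GBP6 had counts of 6, 0 and 0 in the controls and 4, 2 and 0 after knockdown. GBP7 had counts of 0, 0 and 1 in the controls and 0, 0 and 2 in the knockdown libraries. Neither was tested. The pseudogene GBP1P1 had counts of 80, 55 and 63 in the controls and 39, 37 and 23 in the knockdown libraries, without overlap, and a log2 fold change of -0.98 (SE 0.255, adjusted p = 0.00505, edgeR quasi-likelihood test). Its transcript was 95.6% identical to that of GBP1 over 1432 aligned bases, with an identical run of 141 bases, so its counts are uncertain. Among the members GBP1 and GBP3 were the most alike, at 89.1% over 2840 aligned bases and a longest identical run of 99 bases, and no pair shared a window of 150 bases.

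The 5 members span 266 kb of chromosome 1, and this span is called the cluster here. The relatives GBP6 and GBP1P1 lie outside it and were counted among the other genes. Inside it (3 genes) or within 500 kb on either side, 23 other genes were listed and 12 of them were tested. Of these 12, 4 were lower and 0 higher, with a median log2 fold change of -0.142. Over all tested genes 14.0% were lower and 12.7% higher. On the GBP3 side, RBMXL1 had a log2 fold change of -0.34 (adjusted p = 0.00487, edgeR quasi-likelihood test) and KYAT3 of -0.24 (adjusted p = 0.0173, edgeR), and both share 469 exon bases with each other. The KYAT3 call was lost without knockdown replicate 1 or 3, with adjusted p of 0.0653 and 0.108 (edgeR), and then 2 of the 12 genes were lower. Farther out on that side, GTF2B, a general transcription factor, had a log2 fold change of -0.01 and PKN2, a protein kinase, one of 0.00, and neither passed the test. Inside the cluster, the pseudogene PTGES3P1 averaged 1.017 CPM in the controls and 0.6125 CPM in the knockdown libraries (adjusted p = 0.0408, edgeR), a call lost in DESeq2, in limma-voom and without each of 5 libraries (adjusted p 0.0763 to 0.186, edgeR; knockdown replicates 1, 2 and 3 and control replicates 1 and 3). On the GBP5 side, the GBP relative GBP1P1, whose counts are uncertain, was lower. LRRC8B had a log2 fold change of -0.34 (adjusted p = 0.0801, edgeR), which passed without control replicate 1 (adjusted p = 0.0437). LRRC8C had one of 0.22 (adjusted p = 0.104, edgeR). The remaining PKN2-AS1, TCEB1P19, RP4-620F22.2 and RP11-302M6.4 did not pass the test. RP4-620F22.2, at a log2 fold change of -0.51, lies with 100% of its exon bases in GBP5 exons. Its counts may therefore hold reads of GBP5.

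**Figure D4:**
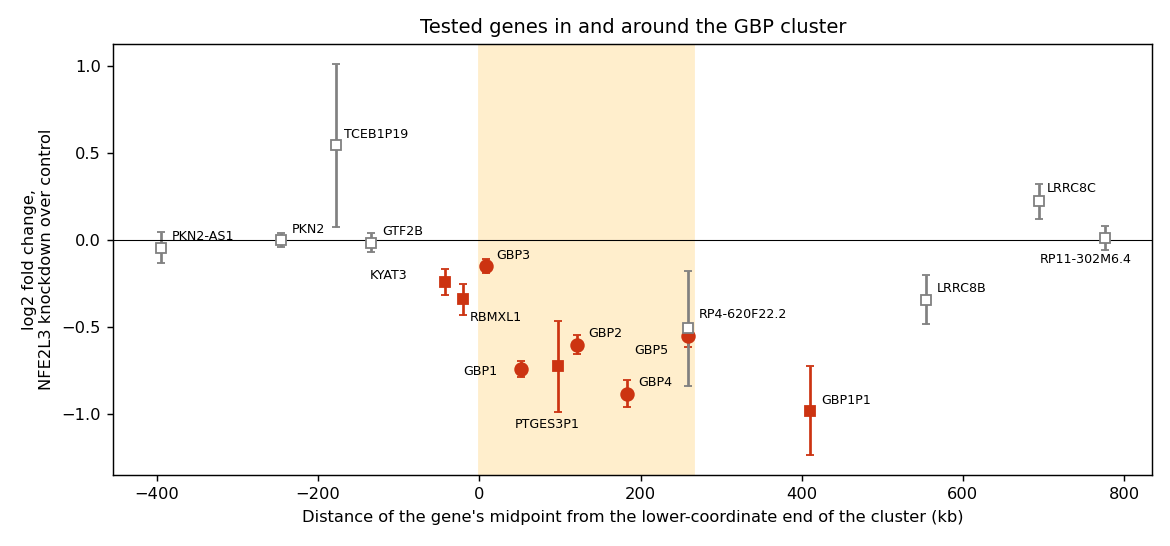
Log2 fold change (knockdown over control, bars are SE) of the tested genes in and around the GBP cluster, against the distance of each gene's midpoint from the lower-coordinate end of the cluster in kb. Circles are the 5 members, squares the other 12 genes, filled red those at an adjusted p under 0.05, and the shaded band is the span of the members. The members lie between -0.88 and -0.15, and GTF2B and PKN2 lie at the zero line.

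Lists of related genes were set beside the members, each by its counts and median. The background for each count in this list and those that follow was 14.0% of all tested genes lower and 12.7% higher. These are transcript levels, and the activity of the pathways was not tested. In the list of the interferon-γ receptor, JAK-STAT and IRF1 axis, 10 of 16 tested genes were lower and 0 higher, with a median log2 fold change of -0.255. Over the alternatives 8 to 11 were lower, with medians from -0.267 to -0.235. The ligand gene IFNG had 0 counts in all control libraries, a value that allows up to 3 counts per library, and 0, 0 and 2 in the knockdown libraries, and it was not tested. Of the receptor chains, IFNGR1 fell from 103.5 ± 0.975 to 88.68 ± 1.83 CPM (SD, n = 3 each, adjusted p = 1.72e-04, edgeR), while IFNGR2 was at 47.03 ± 3.44 and 47.23 ± 2.44 CPM and did not pass the test. Of the kinases, JAK1 fell from 316.1 ± 3.49 to 249.1 ± 4.47 CPM (SD, n = 3 each, adjusted p = 1.63e-07, edgeR), and JAK2 from 27.24 ± 1.33 to 23.81 ± 0.0684 CPM (adjusted p = 0.00988, edgeR). The JAK2 call was lost without control replicate 2 (adjusted p = 0.0585, edgeR).

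IRF1, an interferon-induced factor that binds ISRE-type elements, was at 18.91, 21.43 and 21.96 RPKM in the controls and 16.58, 17.18 and 16.1 RPKM in the knockdown libraries. The groups did not overlap, and the log2 fold change was -0.32 (SE 0.0483, adjusted p = 1.48e-05, edgeR). The fall of IRF1 was thus smaller than that of GBP1, GBP2, GBP4 and GBP5 and larger than that of GBP3 by value, and these differences were not tested. Of the negative regulators in this list, SOCS3 fell from 13.2 ± 1.67 to 8.156 ± 0.407 CPM (SD, n = 3 each, adjusted p = 1.15e-06, edgeR), and the phosphatase PTPN11 had a log2 fold change of -0.29 (adjusted p = 9.97e-06, edgeR). SOCS1 had one of -0.43 (adjusted p = 0.00857, edgeR), a call lost without knockdown replicate 2 (adjusted p = 0.0754) or control replicate 2 (adjusted p = 0.0547). PIAS1 and PTPN2, also negative regulators and named after their values were seen, had log2 fold changes of -0.08 and -0.06 and did not pass the test (adjusted p = 0.298 and 0.331, edgeR).

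In the list of the type I and III interferon axis, 6 of 11 tested genes were lower and 1 higher, with a median of -0.219. The alternatives gave 6 lower and 0 to 1 higher, with medians from -0.231 to -0.192. IFNB1 had counts of 2, 2 and 0 in the controls and 0 in all knockdown libraries and was not tested. ISG15, the ubiquitin-like modifier, fell by 0.58 on the log2 scale, IRF9, the DNA-binding part of the ISGF3 complex, by 0.35, the receptor chain IL10RB by 0.39 and the ISG15 protease USP18 by 0.41. IRF3, named after its values were seen as the gene that was higher, had a log2 fold change of 0.18 (adjusted p = 0.0103, edgeR), and its call was lost without knockdown replicate 1 (adjusted p = 0.0559) or control replicate 3 (adjusted p = 0.0968). In the list of NF-κB factors, which also act on GBP promoters, 6 of 11 were lower and 0 higher, with a median of -0.188. The alternatives gave 5 to 6 lower, with medians from -0.259 to -0.148. TNFAIP3, an inhibitor of the pathway, fell by 0.42 on the log2 scale, the kinase IKBKB by 0.37, and the subunits NFKB1 and RELB by 0.31 and 0.30.

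Other interferon-induced families were set beside the GBPs. Of the OAS family and RNase L, which sense and cut viral RNA, 5 of 5 were lower, with a median of -0.573. Over the alternatives 4 to 5 were lower, with medians from -0.679 to -0.433. The count was 4 without knockdown replicate 1, knockdown replicate 2 or control replicate 3. OASL fell by 1.03 on the log2 scale, OAS1 by 0.83, OAS2 by 0.57 and OAS3 by 0.33. Of the IFIT and IFITM families, which block viral translation and entry, 5 of 8 tested genes were lower and 0 higher, with a median of -0.373. The alternatives gave 5 to 7 lower, with medians from -0.422 to -0.308. IFITM1 fell by 0.98, IFIT2 by 0.57, IFIT1 by 0.39 and IFIT3 by 0.36 on the log2 scale. Of the genes outside the GBPs that interferon-γ induces, 15 of 21 tested were lower and 0 higher, with a median of -0.248. The alternatives gave 12 to 16 lower, with medians from -0.259 to -0.187. CD274, which encodes PD-L1, fell from 87.38 ± 5.18 to 48.84 ± 1.35 CPM (SD, n = 3 each, adjusted p = 2.67e-12, edgeR), and its relative PDCD1LG2 fell by 0.52 on the log2 scale. B2M, the light chain of MHC class I, fell by 0.54 and the tryptophanyl-tRNA synthetase WARS by 0.42. The members' median of -0.60 lay closest to that of the OAS list.

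Over all tested genes 14.0% were lower and 12.7% higher. Among 12 tested partners of GBPs in cell-autonomous defence, 3 were lower and 1 higher, with a median of -0.113. With no scaling 5 were lower, and 4 with no filter on low counts or without knockdown replicate 3, control replicate 1 or control replicate 3. CASP1, the inflammasome protease, was at 6.041, 5.64 and 5.791 RPKM in the control libraries and 3.276, 3.613 and 3.611 RPKM in the knockdown libraries, with no overlap. Its log2 fold change was -0.73 (SE 0.0644, adjusted p = 4.45e-09, edgeR), near that of GBP1. CASP4, the lipopolysaccharide-binding caspase that the GBP1 coat recruits, fell by 0.31 on the log2 scale, and APOL3, which permeabilizes bacteria that GBPs have coated, by 0.30. PIM1, a kinase known to hold GBP1 inactive in uninfected cells, rose, with a log2 fold change of 0.35 (adjusted p = 1.33e-04, edgeR). The other 8 tested partners did not pass the test. Among them, and named after their values were seen, NLRP3 was at 0.05 and GSDMD at 0.02 (adjusted p = 0.669 and 0.853, edgeR). Also among them, IL1B was at -0.54 and IL18 at -0.02 (adjusted p = 0.134 and 0.916, edgeR). CASP5, AIM2 and PYCARD had few or no counts and were not tested.

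The background of 14.0% of all tested genes lower and 12.7% higher holds here too. Of the 6 CaaX prenylation enzymes, which modify GBP1, GBP2 and GBP5, 1 was lower and 0 higher, with a median of -0.00812. That gene, the protease ZMPSTE24, had a log2 fold change of -0.16 (adjusted p = 0.0189, edgeR), and its call was lost without knockdown replicate 2 or 3 or control replicate 2 or 3 (adjusted p 0.056 to 0.0959, edgeR). The median of these enzymes took either sign over the alternatives, from -0.0485 without knockdown replicate 3 to 0.0254 without knockdown replicate 1. It was 0.00391 without control replicate 1, 0.0117 with upper quartile scaling, -0.0202 with no scaling, -0.0256 without control replicate 3 and -0.00149 without knockdown replicate 2. Of 11 tested dynamin superfamily GTPases outside the GBPs, 3 were lower and 2 higher, with a median of -0.0765. The antiviral GTPase MX2 fell by 0.42 on the log2 scale. The mitochondrial fusion GTPase MFN1 had a log2 fold change of 0.26 (adjusted p = 1.38e-04, edgeR). The atlastin ATL3, at -0.16, lost its call without knockdown replicate 2 or control replicate 2 (adjusted p = 0.0599 and 0.0534, edgeR), OPA1, at 0.14, without knockdown replicate 1 or 3 or control replicate 3 (adjusted p 0.0697 to 0.113, edgeR), and MX1, named after its values were seen, without knockdown replicate 1, 2 or 3 or control replicate 3 (adjusted p 0.057 to 0.173, edgeR). Leaving out single libraries, 1 to 3 of the 11 were lower and 1 to 2 higher, with 1 lower without knockdown replicate 2 and 1 higher without knockdown replicate 1 or 3 or control replicate 3. The median was then -0.0102 without knockdown replicate 1 and -0.0434 without knockdown replicate 2, and it was -0.0454 with halved counts and -0.0465 when every library had to reach 10 counts.

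**Figure D5:**
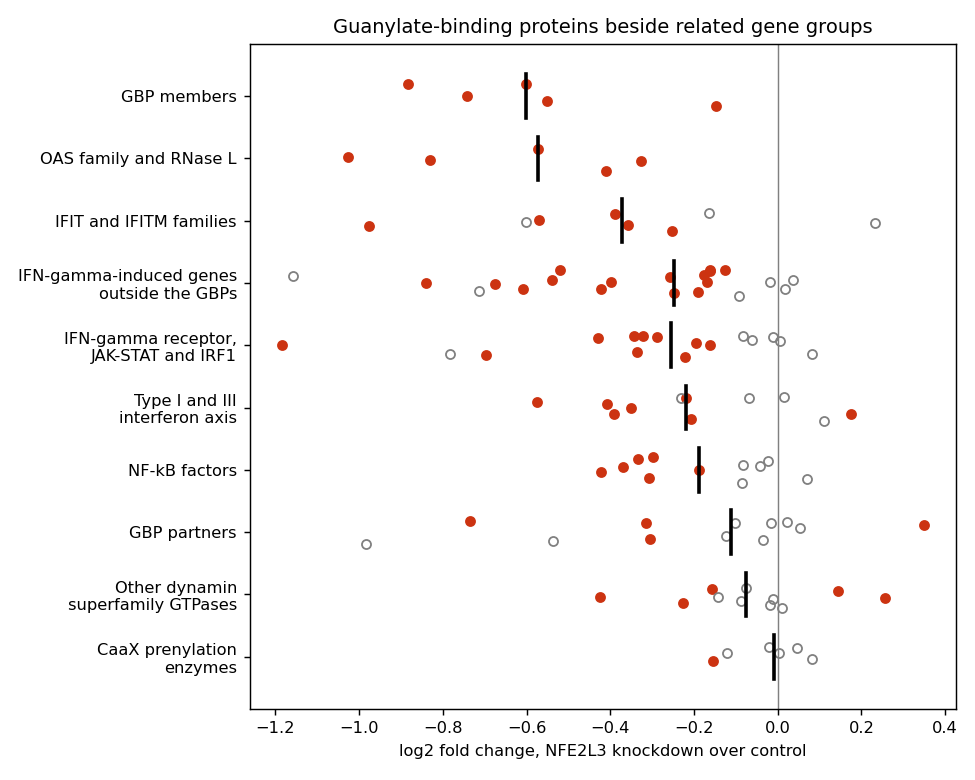
Log2 fold change (knockdown over control) of every tested gene in the GBP group and 9 related lists, with the median of each as a black bar. Filled red points passed an adjusted p under 0.05 and open points did not. The GBP and OAS medians lie farthest to the left, at -0.601 and -0.573, and that of the CaaX enzymes, whose sign changed with the setting, at -0.00812.

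The genes whose pattern over the 6 libraries was most like the mean GBP profile were NDUFS1, DRG1, HSD17B4, LYN and DENND1B, among 11628 genes with a mean of at least 5 CPM. Likeness was the root mean square difference of centred log2 CPM, which was 0.0164 for NDUFS1 and 0.026 for DENND1B. The members themselves stood at 0.0332 (GBP5), 0.0727 (GBP2), 0.101 (GBP1), 0.166 (GBP4) and 0.216 (GBP3). The 5 most similar genes were closer to the mean profile than any member was, but they were picked as the closest of 11628. Their closeness therefore says nothing about the members. Each of the 5 was itself lower in the knockdown libraries, with log2 fold changes from -0.63 to -0.58.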

How the data were processed

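RNA-seq counts of 3 control and 3 NFE2L3 knockdown libraries of 786-O cells were used. Per the submitters' processing notes and the study's methods, the authors used Trimmomatic 0.36 for trimming, merged reads that shared a molecular identifier, mapped them with STAR 2.5.3a and counted exon reads with featureCounts of Subread 1.5.1 against Ensembl release 87. The deposited values are these raw counts, 1 per gene and library, with exon lengths, and gene coordinates match GRCh38. The strand setting is not given in the sources used. Even numbers made up 67.6% to 69.9% of counts under 30, so counts halved and rounded up, for mates counted separately, were an alternative.

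Genes were kept by filterByExpr (minimum count 10), scaled by TMM and tested by the quasi-likelihood test of edgeR 4.0.16 in R 4.3.3, with Benjamini-Hochberg adjustment over all 19916 tested genes. The biological coefficient of variation was 4.756%. RPKM used the exon lengths and the TMM-scaled totals. Intervals are 1.96 SE. Exact permutation tests and ratios used Python 3.11.15 with SciPy 1.17.1. The procedure was tested on simulated data. The total counts, 51828446 to 57391929, set the depth, and intervals cover the spread between libraries.

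The members and the gene lists were chosen with earlier results of these data known. Genes were named by a rule: NFE2L3, the members, GBP6, GBP7, GBP1P1, a fixed set of interferon-axis genes, up to 4 genes per list with the smallest adjusted p under 0.05, the tested genes around the cluster, and the 5 genes most like the members. Around the cluster, 35 rows merged over several chromosomes or over more than 1000 kb were left out. Promoters were from RefSeq (GRCh38.p14), and transcript identity was computed from GENCODE v44 transcripts lifted to GRCh37, for sequence only. Results for 1 gene named by the rule are left out. A planned description of protein sequences was not run. Alternatives were RLE, upper quartile and no scaling, 2 other filters on low counts, DESeq2 1.42.0, limma-voom (limma 3.58.1), edgeR's exact test, halved counts, a replicate block and leaving out each library. Replicate numbers did not pair the libraries: deviations of same-numbered libraries correlated at -0.0482 to -0.0147.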

Additional observations from a re-analysis of the deposited data

How the results depend on the processing

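All 5 GBP members stayed lower at an adjusted p under 0.05 in each of the 16 alternatives, and 0 of 5 reached a fold of 2 with an unadjusted p under 0.05. Their log2 fold changes ran from -0.788 to -0.714 for GBP1, from -0.66 to -0.553 for GBP2, from -0.174 to -0.127 for GBP3, from -0.998 to -0.818 for GBP4 and from -0.581 to -0.502 for GBP5. With the replicate block, 2504 genes were lower and 2278 higher, the 5 members stayed lower, and GBP3 had an adjusted p = 0.0154 (edgeR). The replicate numbers are no pairing, and of the calls named here the block ended that of PTGES3P1 (adjusted p = 0.0655, edgeR). Leaving out each library, 2 to 4 genes of the related lists were higher and 2 to 4 genes around the cluster lower. The direction turned for genes near no change: PKN2 at -0.002332 with no filter and -0.01024 with no scaling, IFNGR2 at -0.00702 with no scaling and GTF2B at 0.006215 with upper quartile scaling. Without 1 library they and others ranged from -0.006627 to 0.009128 for PKN2, -0.05138 to 0.04879 for IFNGR2, -0.03965 to 0.03491 for GTF2B, -0.1033 to 0.02404 for PKN2-AS1 and -0.02781 to 0.04814 for RP11-302M6.4. The cause was not tested. Of the other values for single genes, 881 kept direction and call, 28 lost the call and 1 gained it. Designs of 3 libraries a group allow no exact p under 0.1, and PTGES3P1 and the GBP relatives were limited by low counts.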

Other observations

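Beyond the members, tested genes with an ISRE core in the RefSeq promoter were counted, a description chosen after the values of the GBPs were seen. Of 471 such genes outside the members, 125 were lower (26.5%) and 67 higher (14.2%) at an adjusted p under 0.05 (edgeR quasi-likelihood test), with a median log2 fold change of -0.0502. Of all 11158 tested genes with a promoter in the table, 17.8% were lower and 14.9% higher, with a median of -0.0114. For promoters with GAS, 20.3% of 961 genes were lower and 11.0% higher, with a median of -0.029. The share lower was 19.8% of 2142 genes with the ARE core, 19.0% of 1897 with the κB motif and 18.3% of 496 with GTCACNCT. In the same order, 15.2%, 15.1% and 13.9% were higher, with medians of -0.0158, -0.0157 and -0.0344. These gene sets overlap, and the differences between their shares were not tested.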
